A study of Caenorhabditis elegans with 4 samples.

Results

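The proteasome genes of Caenorhabditis elegans were taken as every row of the count table whose gene ID has a symbol of the pas, pbs, rpt or rpn series followed by a number. The rule gave 33 genes among 20182 in the table, and all 33 were among the 13944 genes tested. They comprised 14 genes of the core particle, 10 of the base, 8 of the lid, and rpn-6.2, a second gene for the lid subunit encoded by rpn-6.1. RNA came from whole worms hatched overnight, grown on OP50 bacteria to the young adult stage and frozen. The mutant group had 2 libraries from a strain carrying cey-1 (rrr12) and cey-4 (ok858), which affect a pair of Y-box RNA-binding proteins, and the N2 group had 2 libraries from the standard laboratory wild type. The labels name no transgene or drug in either group, and the same RNA lysates also served for ribosome profiling. Whole worms mix soma and germline, so fewer cells of a type and less RNA per cell cannot be told apart in these values.

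The proteasome degrades proteins tagged with ubiquitin. Its core particle is a barrel of stacked rings, with alpha subunits (pas genes) forming the gated ends and beta subunits (pbs genes) the inner rings that hold the protease sites. The regulatory particle has a base, whose ATPases (rpt genes) unfold the substrate and thread it into the core, and a lid (most rpn genes), which removes the ubiquitin chain. In C. elegans the transcription factor SKN-1 raises proteasome gene expression when proteasome function is impaired.

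Library totals were 33009708 and 24717311 counts in the mutant and 29773406 and 31311497 in N2. Levels are given as CPM, counts scaled to a common library size with TMM factors, which bring most genes to the same level in every library. The mutated gene cey-4 had 10.1 and 11.3 CPM in the mutant libraries and 787 and 762 CPM in the N2 libraries, and cey-1 had 21.6 and 24.5 CPM in the mutant and 144 and 130 CPM in N2, so both labels held. Across all genes tested, 13.3% were lower and 13.1% were higher in the mutant at an adjusted p below 0.05 (edgeR quasi-likelihood test with Benjamini-Hochberg adjustment over all 13944 genes, the test behind every adjusted p below). Both mutant libraries lay below both N2 libraries for 33.5% of the genes tested, and above both for 30.6%.

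Most proteasome genes that passed the test were lower in the mutant. Of the 33 genes, 20 fell, 12 did not pass the test and 1, rpn-6.2, rose, against the 13.3% of all genes that were lower. The 20 genes that fell changed by -32.8 to -18.5%, with adjusted p from 0.00219 to 0.0450. The median log2 fold change (mutant over N2) was -0.34 over the 33 genes and -0.01 over all genes tested. The 12 genes that did not pass also had negative values, from -0.27 to -0.07. The 2 mutant libraries lay below both N2 libraries for 29 of the 33 genes, beside 33.5% of all genes tested. Together the 33 genes had 5494 and 5272 CPM in the mutant libraries and 6570 and 6623 CPM in the N2 libraries, a change of -18.4% in the mean.

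**Figure D1:**
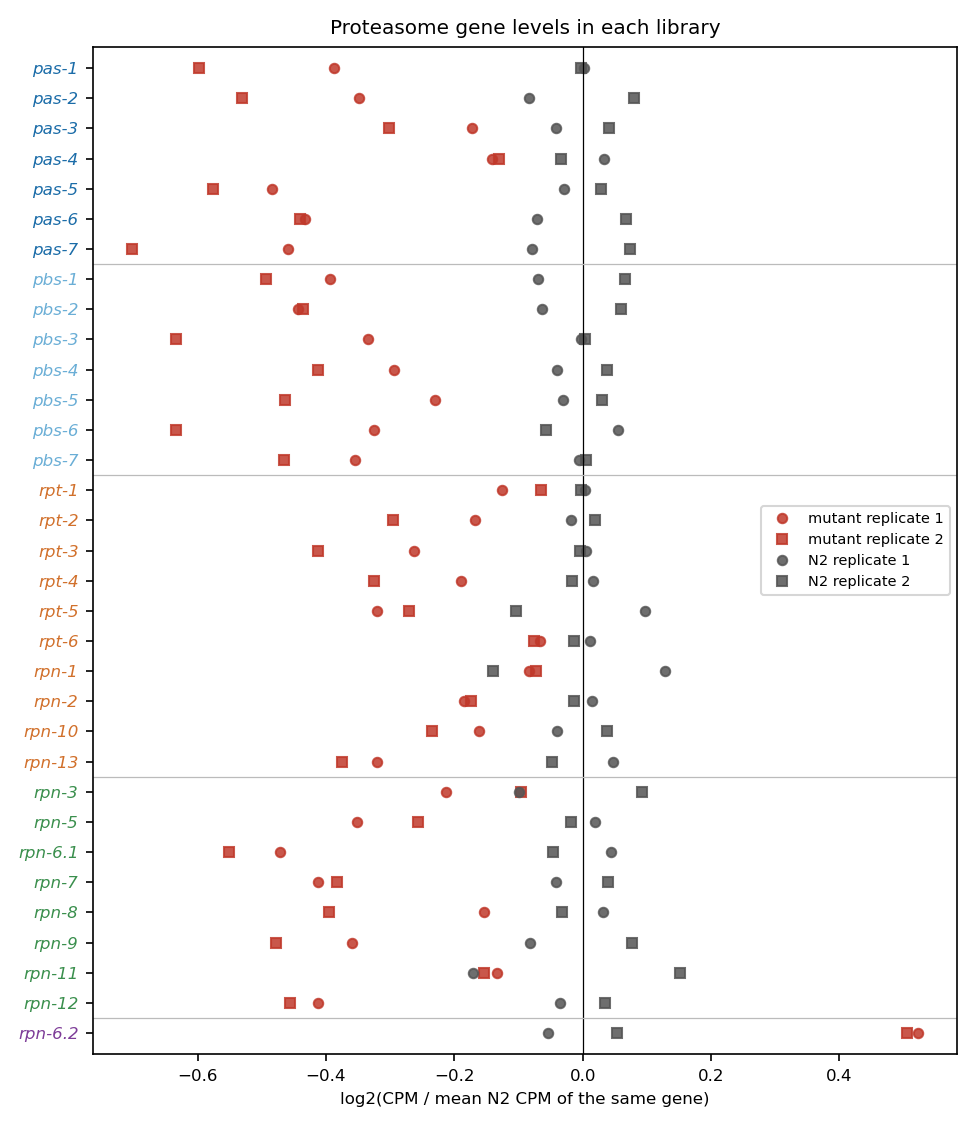
Levels of the 33 proteasome genes in the 4 libraries, as log2 of CPM over the gene's mean in N2 (x axis), with genes down the page from the alpha ring (top) through the beta ring, base and lid to rpn-6.2, label colours marking the sub-complex. Red points are mutant libraries and grey points N2 libraries. Mutant points lie left of N2 points in 29 genes, overlap them in rpn-1, rpn-3 and rpn-11, and lie to the right in rpn-6.2.

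Of the 7 alpha ring genes 5 fell, beside 13.3% of all genes tested, and 2 did not pass. Transcripts of pas-7 had 96.8 and 81.8 CPM in the mutant and 126 and 140 CPM in N2, a log2 fold change of -0.57 ± 0.11 (SE; edgeR adjusted p = 0.00369). For pas-5, the most abundant core gene per length in N2, the levels were 214 and 201 CPM in the mutant and 293 and 305 CPM in N2 (log2 fold change -0.53 ± 0.09, edgeR adjusted p = 0.00219). For pas-1 they were 143 and 124 CPM in the mutant and 187 and 187 CPM in N2 (-0.49 ± 0.10, edgeR adjusted p = 0.00504). In each of these genes the lowest N2 library stood clear of the highest mutant library. The genes pas-2 and pas-6 fell to 82.8 ± 7.40 and 91.9 ± 0.369 CPM in the mutant, against 112 ± 9.01 and 124 ± 8.42 CPM in N2 (SD, n = 2 each), with the same log2 fold change of -0.44. The 2 that did not pass were pas-3, with 228 and 209 CPM in the mutant and 250 and 265 CPM in N2 (-0.24 ± 0.09, edgeR adjusted p = 0.0851), and pas-4, with 56.3 and 56.7 CPM in the mutant and 63.6 and 60.7 CPM in N2 (-0.14 ± 0.09, edgeR adjusted p = 0.317). In both genes the 2 mutant libraries were below the 2 N2 libraries, as they were for 33.5% of all genes tested.

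All 7 beta ring genes fell, beside 13.3% of all genes tested, with log2 fold changes from -0.48 to -0.34. Among the genes of the catalytic subunits, pbs-1 had 98.7 and 92.0 CPM in the mutant and 124 and 136 CPM in N2 (-0.44 ± 0.10, edgeR adjusted p = 0.00707). The gene pbs-2 had 82.9 and 83.3 CPM in the mutant and 108 and 118 CPM in N2 (-0.44 ± 0.09, edgeR adjusted p = 0.00641). The third, pbs-5, the target of most proteasome inhibitors in other species, had 139 and 118 CPM in the mutant and 160 and 167 CPM in N2, the smallest change of the ring (-0.34 ± 0.10, edgeR adjusted p = 0.0301). Of the subunits without a protease site, pbs-3 had the largest fall, with 125 and 101 CPM in the mutant and 157 and 158 CPM in N2 (-0.48 ± 0.11). The mutant libraries differed most in pbs-6, at 105 and 84.4 CPM against 136 and 126 CPM in N2 (-0.47 ± 0.11). The remaining genes pbs-4 and pbs-7 changed by -0.35 and -0.41 on the log2 scale. In all 7 genes both mutant libraries were below both N2 libraries, as they were for 33.5% of all genes tested. With each library's trend on exon length removed, 1 of the 7 was called lower.

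Of the 10 base genes 3 fell, beside 13.3% of all genes tested, and 7 did not pass. The median log2 fold change was -0.21. Among the 6 ATPase genes, rpt-3 had 133 and 120 CPM in the mutant and 160 and 159 CPM in N2 (-0.34 ± 0.09, edgeR adjusted p = 0.0224). The call for rpt-5 was marginal, at 203 and 210 CPM in the mutant and 271 and 236 CPM in N2 (-0.30 ± 0.10, edgeR adjusted p = 0.0450), and it was lost under 13 of 16 alternatives. The other ATPase genes did not pass, and rpt-6 and rpt-1 lay nearest to N2. Transcripts of rpt-6 had 148 and 147 CPM in the mutant and 156 and 153 CPM in N2 (-0.07 ± 0.09, edgeR adjusted p = 0.591), and those of rpt-1 had 260 and 271 CPM in the mutant and 284 and 283 CPM in N2 (-0.09 ± 0.09, edgeR adjusted p = 0.462). For rpt-2 and rpt-4 the values were -0.23 and -0.26, with edgeR adjusted p of 0.0876 and 0.0620.

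The large scaffold subunits of the base, on which the ATPases and ubiquitin receptors dock, had long transcripts and small differences. Counts of rpn-2, the most abundant member in CPM, gave 466 and 470 CPM in the mutant and 535 and 525 CPM in N2 (-0.18 ± 0.09, edgeR adjusted p = 0.158). Those of rpn-1 gave 368 and 371 CPM in the mutant and 426 and 354 CPM in N2, where the mutant libraries fell between the 2 N2 libraries (-0.08 ± 0.10, edgeR adjusted p = 0.625). The ubiquitin receptor gene rpn-13 fell, with 165 and 158 CPM in the mutant and 212 and 199 CPM in N2 (-0.35 ± 0.09, edgeR adjusted p = 0.0161). The other ubiquitin receptor gene, rpn-10, had 141 and 134 CPM in the mutant and 153 and 162 CPM in N2 and did not pass (-0.20 ± 0.09, edgeR adjusted p = 0.133).

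Of the 8 lid genes 5 fell, beside 13.3% of all genes tested, and 3 did not pass. The median log2 fold change was -0.35. The genes that fell were rpn-5, rpn-6.1, rpn-7, rpn-9 and rpn-12, which encode structural subunits. Transcripts of rpn-7 had 247 and 252 CPM in the mutant and 320 and 338 CPM in N2 (-0.40 ± 0.09, edgeR adjusted p = 0.00807). Those of rpn-12 had 121 and 118 CPM in the mutant and 158 and 165 CPM in N2 (-0.43 ± 0.09, edgeR adjusted p = 0.00560). Those of rpn-9 had 177 and 163 CPM in the mutant and 215 and 240 CPM in N2 (-0.42 ± 0.10, edgeR adjusted p = 0.00985). The most abundant lid gene per length, rpn-5, had 288 and 308 CPM in the mutant and 373 and 363 CPM in N2 (-0.30 ± 0.09, edgeR adjusted p = 0.0285).

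The lid genes that did not pass were rpn-11, the deubiquitinase that cuts the chain from the substrate, its partner rpn-8, and the structural gene rpn-3. Transcripts of rpn-11 had 144 and 142 CPM in the mutant and 140 and 175 CPM in N2, so that one N2 library lay below both mutant libraries (-0.14 ± 0.11, edgeR adjusted p = 0.381). The 2 N2 libraries differed by 0.32 on the log2 scale in this gene, the widest gap between replicates of any member. Transcripts of rpn-8 had 153 and 130 CPM in the mutant and 174 and 167 CPM in N2 (-0.27 ± 0.10, edgeR adjusted p = 0.0780), a value close to that of rpn-5. Those of rpn-3 had 160 and 174 CPM in the mutant and 174 and 198 CPM in N2, with overlapping groups (-0.15 ± 0.10, edgeR adjusted p = 0.290).

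The sub-complexes were set side by side by their summed levels and by ratios within each library, and no difference between them was shown. Summed over its 14 genes the core had 1687 and 1522 CPM in the mutant and 2096 and 2186 CPM in N2, a change of -25.1%. The 8 lid genes had 1373 and 1364 CPM in the mutant and 1670 and 1757 CPM in N2, a change of -20.1%. The 10 base genes had 2399 and 2352 CPM in the mutant and 2781 and 2656 CPM in N2, a change of -12.6%. The log2 ratio of core over base, formed within each library, was -0.51 and -0.63 in the mutant and -0.41 and -0.28 in N2, a difference of -0.22. Core over lid was 0.30 and 0.16 in the mutant and 0.33 and 0.32 in N2, a difference of -0.09, close to the SD of 0.098 between the mutant libraries. Base over lid was 0.81 and 0.79 in the mutant and 0.74 and 0.60 in N2, a difference of 0.13. Leaving out 1 library moved the core over lid difference between -0.16 and -0.025 and the base over lid difference between 0.060 and 0.20. In each of these 3 ratios and 3 sums the groups did not overlap, but the ratios were formed from the same sums. Such separation was common among single genes: both mutant libraries lay below both N2 libraries for 33.5% of those tested, and above for 30.6%. The exact two-sided permutation test gave p = 0.333, unadjusted and adjusted over the 6 comparisons. That is the smallest p that 2 against 2 libraries allow.

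The pair of rpn-6 genes moved in opposite directions. The lid gene rpn-6.1 (WBGene00004462, minus strand of chromosome III, 6959110 to 6962001 in the WBcel235 annotation) encodes the subunit that clamps lid to core, and raising its level extends lifespan in worms. It had 82.5 and 78.1 CPM in the mutant and 118 and 111 CPM in N2 (log2 fold change -0.51 ± 0.09, edgeR adjusted p = 0.00307). Its paralog rpn-6.2 (WBGene00010309, minus strand of chromosome III, 8999817 to 9001999) had 34.4 and 34.0 CPM in the mutant and 23.1 and 24.9 CPM in N2 (0.51 ± 0.10, edgeR adjusted p = 0.00538). The change in rpn-6.1 was the largest of any lid gene, and rpn-6.2 was the only member with a positive value.

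Per kilobase of exon, rpn-6.2 stood at 22.1 and 21.8 CPM per kb in the mutant and 14.8 and 15.97 CPM per kb in N2. The corresponding levels of rpn-6.1 were 50.1 and 47.5 CPM per kb in the mutant and 71.7 and 67.3 CPM per kb in N2. The second gene thus made up 30.6 and 31.5% of the pair's length-scaled level in the mutant libraries and 17.1 and 19.2% in the N2 libraries. The log2 ratio of rpn-6.2 over rpn-6.1 in CPM averaged -1.23 ± 0.04 in the mutant and -2.25 ± 0.14 in N2 (SD, n = 2 each), a difference of 1.03. The groups were far apart beside these spreads, although the exact two-sided permutation test could give no less than p = 0.333. The ratio within a library does not depend on scaling between libraries. How much of the sequence the 2 transcripts share, and how reads matching both were assigned, were not examined here.

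**Figure D2:**
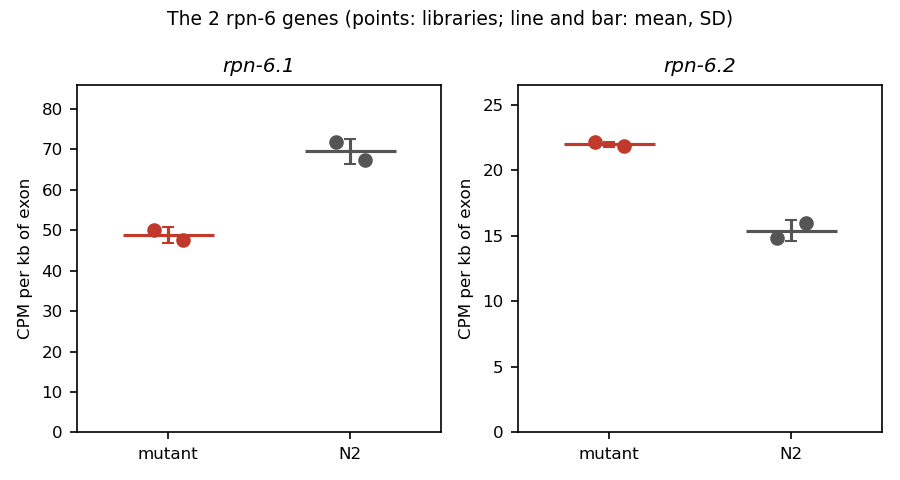
Levels of rpn-6.1 (left) and rpn-6.2 (right) in CPM per kb of exon, with 2 mutant and 2 N2 libraries as points and the mean and SD as line and bar. Mutant rpn-6.1 points sit at 50.1 and 47.5, below the N2 points, and mutant rpn-6.2 points at 22.1 and 21.8, above them.

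Some marker genes of sperm, oocytes, body wall muscle and intestine differed between the groups as well, and their part in these results was not tested. Of all genes tested, 13.3% were lower and 13.1% higher. Of 24 sperm marker genes tested, 21 were higher in the mutant and 0 lower, with a summed level of 574 and 553 CPM in the mutant and 357 and 364 CPM in N2. The median log2 fold change of that list was 0.94. Of 12 oocyte markers 4 were lower and 0 higher, at 6871 and 7147 CPM in the mutant and 8865 and 8071 CPM in N2. Of 8 body wall muscle markers 5 were higher and 0 lower, at 15170 and 15820 CPM in the mutant and 10060 and 10490 CPM in N2. Of 10 intestinal markers 4 were higher and 1 lower, at 54670 and 58800 CPM in the mutant and 48890 and 32350 CPM in N2. Most of that sum came from the yolk genes vit-6 and vit-2. They had 34140 and 35700 CPM (vit-6) and 17540 and 19710 CPM (vit-2) in the mutant. In N2 they had 31280 and 21920 CPM (vit-6) and 14910 and 7767 CPM (vit-2), so the sum says little about the other intestinal markers. Of 8 neuronal markers 1 was higher and 1 lower, near the shares of all genes tested. Their summed level was 170.1 and 186 CPM in the mutant and 203 and 195 CPM in N2. None of the markers tested was at 0. With each library's trend on exon length removed, the oocyte markers had 7 lower and 1 higher and the neuronal markers 1 lower and 0 higher. In that fit 9.21% of all genes tested were lower and 13.6% higher.

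Subunits that sit once each in every ring did not have equal transcript levels. Within the 14 core genes the level per kilobase ran from 64.0 (pas-4) to 245 (pas-3) CPM per kb in the mutant and from 70.3 (pas-4) to 350.0 (pas-5) CPM per kb in N2. The highest core level was 3.82 times the lowest in the mutant and 4.98 times the lowest in N2. The base was tighter, from 93.2 to 180 CPM per kb in the mutant and from 110.0 to 211 CPM per kb in N2, with rpt-2 highest in both. In the lid, rpn-6.1 was lowest and rpn-5 highest in both groups. The median levels of core, base and lid were 112, 128 and 122 CPM per kb in the mutant and 152, 152 and 155 CPM per kb in N2. The 3 sub-complexes were thus near a common level in N2, and the core had the lowest median in the mutant.

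The order of the genes was largely kept, with local shifts. The lowest places were held by pas-4, rpn-6.1 and rpn-6.2 in both groups. The highest place passed to pas-3 in the mutant, at 245 ± 15.4 CPM per kb beside 243 ± 10.8 for pas-5, a gap within the spread. In N2 pas-5 stood at 350.0 CPM per kb and pas-3 at 288 ± 11.7. The gene rpt-1 held place 4 in the mutant and place 8 in N2, and rpn-1 held place 16 in the mutant and place 25 in N2. The level of rpn-1 itself was 117 ± 0.564 CPM per kb in the mutant and 123 ± 16.1 in N2 (SD), a gap within the N2 spread. In the other direction, pas-7 held place 28 in the mutant and place 20 in N2.

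**Figure D3:**
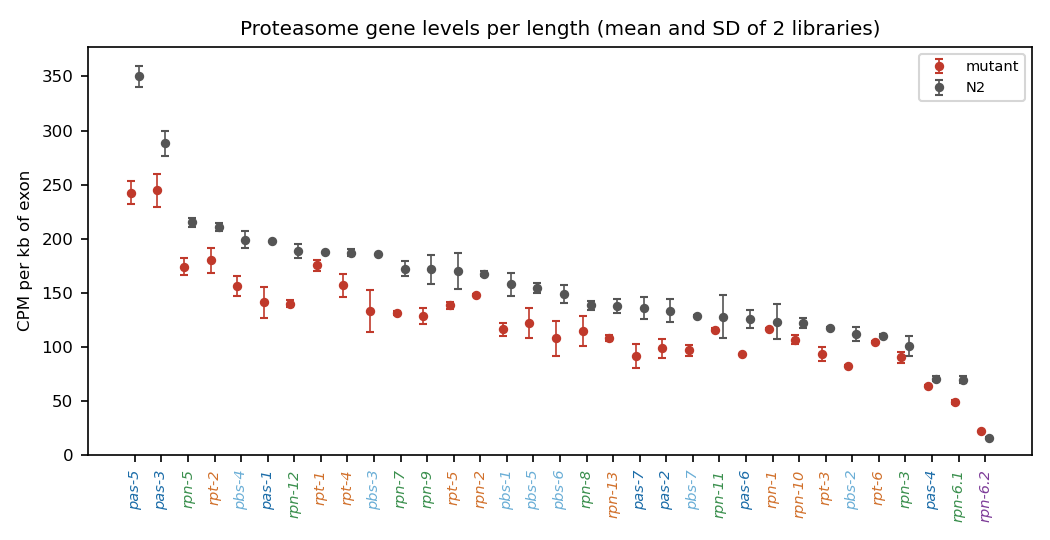
Level of each of the 33 genes in CPM per kb of exon (y axis), as mean and SD of 2 mutant libraries (red) and 2 N2 libraries (grey), with genes ordered by their N2 level and label colours marking alpha ring, beta ring, base, lid and rpn-6.2. The mutant means are below the N2 means except in rpn-6.2, and pas-5 and pas-3 stand above the rest in both groups.

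Exon length ran along with the size of the change. The core genes are short, with a median summed exon length of 880.5 bases, beside 1484 bases for the base and 1486 for the lid. Across the 32 genes without rpn-6.2, which are not independent replicates and share the same 4 libraries, the Spearman correlation of exon length with the log2 fold change was 0.53. Across the transcriptome exon length also ran along with differences between libraries, including those between replicates of a group. Over 7439 protein-coding genes of at least 10 CPM, its correlation was 0.40 with the difference of mutant replicate 2 minus 1. With that of N2 replicate 2 minus 1 it was -0.34. The signs of these values depend on how the replicates were numbered. Each mutant library set against each N2 library gave a correlation between 0.24 and 0.50.

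The members were also set beside genes of the same length class. Among protein-coding genes at least as abundant as the scarcest of the 32 and up to 1 kb long, whose abundance had no upper limit, 13 proteasome genes had a median log2 fold change of -0.44, beside -0.26 for 472 genes in all. In that class 11 of the 13 fell, beside 41.5% of the 472. From 1 to 2 kb the median was -0.30 for 17 proteasome genes and -0.12 for 1150 genes, and 9 of the 17 fell beside 22.3% of the 1150. From 2 to 4 kb the median was -0.13 for 2 members, rpn-1 and rpn-2, and 0.03 for 1240 genes. Neither member passed, and 5.48% of the 1240 were lower. The part of exon length in the members' changes was not tested.

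**Figure D4:**
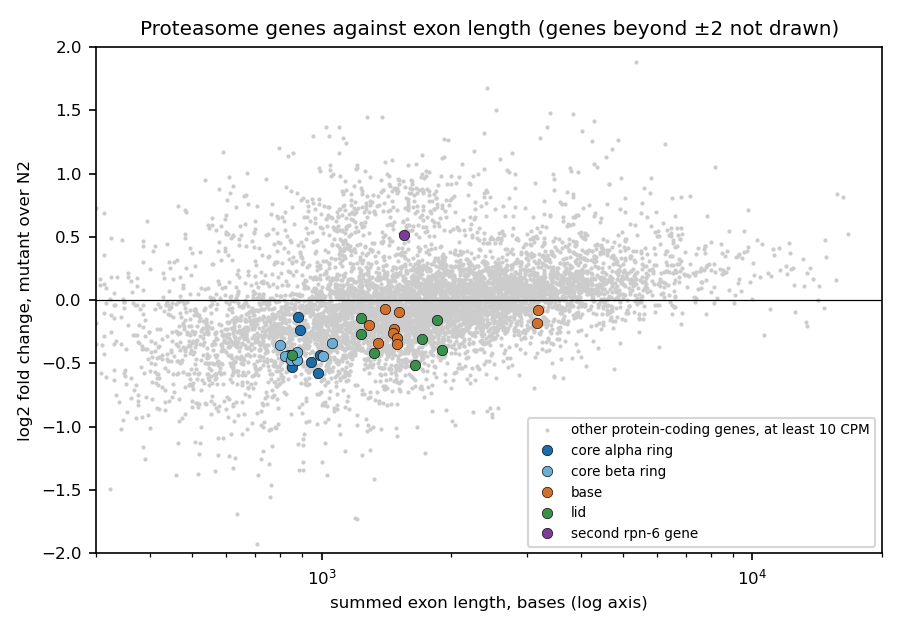
Log2 fold change (mutant over N2, y axis) against summed exon length in bases (x axis, log scale) for protein-coding genes of at least 10 CPM (grey) and the 33 proteasome genes (coloured by sub-complex), with genes outside the axis ranges not drawn. Core genes and the lid gene rpn-12 lie near the left, the other base and lid genes lie further right, and rpn-6.2 is the only member above 0.

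With each library's trend on exon length removed, fewer members were called and the core and lid medians were nearly equal. When the trend was estimated on protein-coding genes above 2 CPM, 13 of the 33 were lower and 1 higher, against 9.21% and 13.6% of all genes tested. The core then had 5 lower genes of 14, the base 3 of 10 and the lid 5 of 8, and the medians were -0.27, -0.18 and -0.26. All of the beta ring genes but pbs-2 lost their call, with log2 fold changes from -0.30 to -0.15, whereas rpn-2 gained one (-0.28, edgeR adjusted p = 0.0246). The gene pas-4 turned to 0.038. The core over lid difference became 0.020 and that of core over base -0.063. The rise of rpn-6.2 (0.57, edgeR adjusted p = 0.00237) and the falls of rpn-6.1 (-0.47), pas-7 (-0.43) and rpn-7 (-0.39) were called in this fit as well.

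The calls depended on having both mutant libraries. Mutant replicate 2 was below mutant replicate 1 in 24 of the 33 genes and in 12 of the 14 core genes, by up to 0.31 on the log2 scale in pbs-6. Without mutant replicate 2, which leaves 1 library in that group, edgeR called 0 members lower, with 14 lower at an unadjusted p below 0.05, and 3.12% of all genes tested were lower. The median log2 fold change of the 33 genes was then -0.29, and 32 of them were negative. Without mutant replicate 1 there were 7 lower members, namely pas-1, pas-2, pas-5, pas-7, pbs-3, pbs-6 and rpn-6.1, beside 6.15% of all genes tested. Without N2 replicate 1 and without N2 replicate 2 there were 21 each, beside 16% and 11.9% of all genes tested. The gene rpn-6.2 was the only member called in all of these fits and in each of the 16 alternatives, with log2 fold changes from 0.46 to 0.63.

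**Figure D5:**
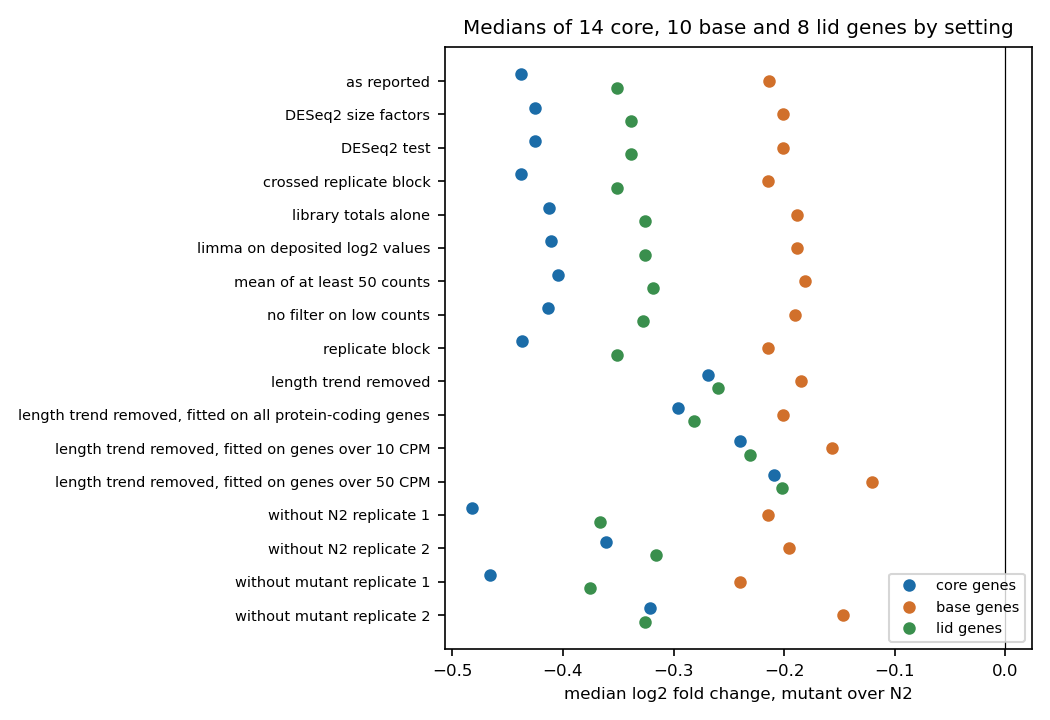
Median log2 fold change (mutant over N2, x axis) of the 14 core, 10 base and 8 lid genes under each way of processing the counts (rows), from the values as reported at the top to the fits without 1 library at the bottom. Every median is below 0, the base is nearest to 0 in every row, and core and lid come together where the length trend is removed and without mutant replicate 2.

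The genes lay on 5 chromosomes, with falls on each. Chromosome I held 10 of the 33 genes and 6 of those that fell, II held 7 and 5, III held 8 and 4, IV held 3 and 2, and V held 5 and 3. Of the 33, 11 share exon bases with another annotated gene, 10 of them with one on the opposite strand (use of strand in counting: not given in the sources used here). Such overlap was at most 394 bases, between rpn-7 and nemt-1, and nemt-1 had 0.501 CPM in the mutant and 0.350 CPM in N2. Of the 11 genes 6 fell, as did 14 of the 22 genes with no such overlap, beside 13.3% of all genes tested. Shares of all genes by chromosome or by overlap are not given here, so no effect of location was shown.

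Genes that work beside the proteasome were compared from further lists. Of 5 genes for shuttle factors, proteasome deubiquitinases and the small lid subunit, 3 were lower, 0 were higher and 2 did not pass, against the 13.3% of all genes that were lower. With the length trend removed 2 were lower. The gene ubh-4, for the deubiquitinase that docks on RPN-13, had 145 and 126 CPM in the mutant and 191 and 214 CPM in N2 (-0.58 ± 0.10, edgeR adjusted p = 0.00282). That for the other proteasome deubiquitinase, usp-14, had 225 and 205 CPM in the mutant and 271 and 266 CPM in N2 (-0.32 ± 0.09, edgeR adjusted p = 0.0245), and was not called without mutant replicate 1 either (-0.37). The small lid subunit gene dss-1 had 30.2 and 21.96 CPM in the mutant and 40.2 and 35.6 CPM in N2 (-0.53 ± 0.15, edgeR adjusted p = 0.0209). Removal of the length trend ended the call of dss-1 (-0.28), and leaving out mutant replicate 2 ended those of ubh-4 (-0.45), usp-14 (-0.23) and dss-1 (-0.30).

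Of 19 tested genes of ubiquitin-conjugating enzymes 3 were lower and 1 higher, a share near the 13.3% lower and 13.1% higher of all genes, and DESeq2 called 1 lower and 0 higher. The list had a median log2 fold change of -0.03. The most abundant gene, let-70, did not pass (-0.21 ± 0.09, edgeR adjusted p = 0.122), and ubc-18 changed most among the abundant ones, at 58.3 CPM in the mutant and 81.6 CPM in N2 (-0.49 ± 0.11, edgeR adjusted p = 0.0104). The scarce ubc-22 was lower (-1.34 ± 0.39), on only 13 and 7 counts in the mutant and 20 and 33 counts in N2. The less abundant ubc-24 was higher (0.69 ± 0.21), on 89 and 72 counts in the mutant and 45 and 59 counts in N2. With the length trend removed 0 of these genes were lower and 2 higher, and the calls of all 3 named genes were lost on leaving out either mutant replicate. Of 13 genes for the segregase CDC-48 and its cofactors, 1 was higher and 0 lower, beside 13.1% and 13.3% of all genes tested. With the length trend removed 1 was higher and 1 lower. The higher gene was the UBX-domain cofactor ubxn-5, at 42.2 and 40.3 CPM in the mutant and 22.2 and 22.8 CPM in N2 (0.88 ± 0.10, edgeR adjusted p = 0.000405), while the segregase gene cdc-48.1 did not pass (-0.16).

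In 3 further lists edgeR, DESeq2 and limma called 0 genes in either direction before any removal of the length trend. They were 6 genes of the COP9 signalosome, a relative of the lid (median log2 fold change -0.18, 2 lower at an unadjusted p below 0.05), 3 genes for ubiquitin and its activating enzyme (-0.16, 0 at an unadjusted p below 0.05) and 12 genes of cullins and partners (-0.03, 0 at an unadjusted p below 0.05). Their most abundant members were csn-3 (-0.24), uba-1 (-0.16) and cand-1 (-0.08). With the length trend removed edgeR called 2 of the 3 ubiquitin and E1 genes lower, among them uba-1 (-0.29, edgeR adjusted p = 0.0245), and 2 of the 12 cullin genes, among them cand-1 (-0.26, edgeR adjusted p = 0.0454). Of 10 genes known to act on proteasome gene expression or on stress and ER protein turnover, 1 was higher and 0 lower. Of all genes tested, 13.1% were higher and 13.3% lower. The higher gene of the list was the zinc finger factor pqm-1. It had 12.8 and 14.1 CPM in the mutant and 9.001 and 7.59 CPM in N2 (0.69 ± 0.14, edgeR adjusted p = 0.00490). The most abundant gene of that list, sel-1, did not pass (0.03). Transcripts of skn-1, a gene singled out after its values were seen and whose longest protein form drives proteasome genes, had 89.5 and 101 CPM in the mutant and 82.4 and 82.7 CPM in N2 and did not pass (0.21 ± 0.10, edgeR adjusted p = 0.147).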

How the data were processed

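Raw read counts per gene, as deposited by the authors, cover 4 libraries. Per the labels' protocols, total RNA went into ScriptSeq v2 libraries. They also deposited log2 values, which equal log2 of the scaled count plus 8 within 0.000512 and were used only as an alternative. Aligner, counting tool, strand use and build: not given in the sources used here. Groups came from the titles. No label says that replicates were separate cultures, and p-values then rest on a spread between samples that may be technical. Replicates were not duplicates: their chi-square over degrees of freedom was 9.06 in the mutant and 30.7 in N2.

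Counts were fitted with edgeR 4.0.16 (R 4.3.3), TMM scaling and the default filter, and SE is the absolute log2 fold change over the square root of F. DESeq2 1.42.0 and limma 3.58.1 were alternatives, and ratios were tested with exact permutations (scipy 1.17.1). Exon lengths and positions are from the Ensembl annotation of WBcel235. Symbols matched 18778 gene IDs. In a test on simulated counts for 13944 genes in this comparison, edgeR recovered 88% of 2-fold and 51.5% of 1.5-fold changes, with 3.47% of its calls false. The simulation had 200 changed genes and no trend on exon length, so that false share need not hold for the calls made here. Every member changed by less than 1.5-fold, a size that the simulation did not cover. The members, lists and tests were chosen with earlier results of these data known. The named genes are all members, the mutated genes, and from each other list up to 3 called genes with the largest change and the most abundant gene. Named outside this rule were skn-1 and nemt-1. Of the marker lists, counts and sums are given, with vit-2 and vit-6 named for the intestine.

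Same-numbered libraries deviated in opposite directions (correlation -0.165), so the replicate block was an alternative only.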

Additional observations from a re-analysis of the deposited data

How the results depend on the processing

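The number of libraries, not depth, limits precision: each member had at least 677 counts per library. Scaling, filter and tool left 18 to 20 members lower and 1 higher. Estimating the length trend on other genes was a choice added after seeing the data. It gave 17 lower members on all protein-coding genes, 10 above 10 CPM and 6 above 50 CPM. Of all genes tested, 10.8%, 8.0% (1115) and 6.75% (941) were lower in these fits, in that order. With the trend on genes above 2 CPM, members had 13 lower and a median of -0.25, the core 5 (-0.27) and the lid a median of -0.26, and core over lid reversed to 0.020. Above 10 CPM the lower genes were 5 in the core and 1 in the base, and above 50 CPM 3, 0 and 3 in core, base and lid. On all protein-coding genes, above 10 CPM and above 50 CPM the median was -0.27, -0.22 and -0.19 for all members, -0.30, -0.24 and -0.21 for the core, and -0.28, -0.23 and -0.20 for the lid. For the base it was -0.16 above 10 CPM and -0.12 above 50 CPM.

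Leaving out 1 library gave 447 to 2295 lower and 960 to 2032 higher genes in all. Lower members ranged over 0 to 21, in the core 0 to 13, the base 0 to 3 and the lid 0 to 6. Medians ranged from -0.38 to -0.29 for members, -0.48 to -0.32 for the core, -0.24 to -0.15 for the base and -0.38 to -0.32 for the lid.

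Single values reversed for pas-4 with the trend removed (0.038, 0.0094 on all protein-coding genes, 0.069 above 10 CPM and 0.096 above 50 CPM), rpt-6 (0.031 and 0.069 above 10 and 50 CPM), rpt-1 (0.033) and rpn-11 (0.0169) above 50 CPM, rpn-11 without N2 replicate 2 (0.041), rpn-1 without N2 replicate 1 (0.062), and sel-1 with the trend removed (-0.0097, -0.023 on all protein-coding genes) and on leaving out 1 library (-0.064 to 0.14). The causes were not tested. With the replicate block 18 members were lower, beside 12.4% of all genes tested, and rpn-5 and rpt-5 lost their call. With crossed numbers, added after seeing the data, 22 members were lower, beside 14.6% of all genes tested.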
